A study of Mus musculus with 9 samples.

Results

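The genes described here encode the chains of the fibril-forming collagens and a collagen that lies on the surface of fibrils: Col1a1, Col1a2, Col3a1, Col5a1, Col5a2, Col11a1, Col11a2 and Col14a1. They were taken by name, with every probe set that the platform annotation gives to 1 of them alone. This gave 8 genes, of 8251 with a probe set of their own, and 13 probe sets. None of their probe sets is shared with another gene. RNA was measured on 9 Affymetrix arrays of the mouse genome. Adult corneas from mice of 7 weeks were measured on 3 arrays and corneas of postnatal day 10 (P10) on 2. The flexor digitorum longus, a tendon that bends the toes, and the lens were measured on 2 arrays each. Tendon and lens also came from mice of 7 weeks, and their RNA was extracted from pooled tissue. Corneas were cut free of the limbus and their epithelium was scraped off, which by the submitters' account lowered the epithelial share of the RNA without removing it. Arrays of a group held independent RNA preparations, so p-values measure the spread between preparations. The sources used here give neither strain nor sex.

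Collagens of this family are made as procollagen chains that fold in threes, are secreted, lose their end propeptides and then line up into fibrils. Type I collagen, built from Col1a1 and Col1a2 chains, is the bulk of both tendon and corneal stroma. Type III, built from Col3a1 alone, is typical of growing and stretchable connective tissue, while types V and XI are the minor fibrillar collagens that co-assemble with the main ones and limit fibril diameter. Corneal fibrils are thin and even, tendon fibrils grow thick, and the adult lens fibre mass has no fibrillar matrix of its own. Col14a1 encodes the chain of type XIV collagen, which sits on fibrils and links their surfaces to their surroundings.

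Promoter sequence is shown for the members that the RefSeq table holds with enough bases before the gene's first annotated base, so that the start regions of genes that differed together in the arrays can be read side by side. RefSeq sequences on build GRCm38.p6 were matched by symbol for 5 of the 8 members. Of these, Col11a2 had only 31 bases before its first annotated base and is not shown. Each line below runs 5′ to 3′ on the plus strand, the strand of the gene, and ends at the base before the gene's first annotated base. The stretches are chr6:4505368-4505617 for Col1a2, chr1:45311288-45311537 for Col3a1, chr2:27886175-27886380 for Col5a1 and chr3:114030290-114030478 for Col11a1. Capitals mark 3 short motifs on either strand. They are the CCAAT box (CCAAT, or ATTGG on the other strand), the GC box (GGGCGG, or CCGCCC on the other strand) and the TATA box (TATAAA, or TTTATA on the other strand).
Col1a2: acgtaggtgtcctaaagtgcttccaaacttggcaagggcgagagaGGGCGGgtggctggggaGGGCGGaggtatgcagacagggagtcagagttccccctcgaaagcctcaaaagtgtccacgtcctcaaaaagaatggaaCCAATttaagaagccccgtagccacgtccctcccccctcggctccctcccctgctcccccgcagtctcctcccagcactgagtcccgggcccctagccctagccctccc
Col3a1: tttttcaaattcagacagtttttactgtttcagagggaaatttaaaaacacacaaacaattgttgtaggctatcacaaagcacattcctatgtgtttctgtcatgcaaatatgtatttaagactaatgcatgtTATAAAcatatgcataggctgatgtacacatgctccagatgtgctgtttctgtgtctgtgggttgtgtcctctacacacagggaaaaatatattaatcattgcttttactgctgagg
Col5a1: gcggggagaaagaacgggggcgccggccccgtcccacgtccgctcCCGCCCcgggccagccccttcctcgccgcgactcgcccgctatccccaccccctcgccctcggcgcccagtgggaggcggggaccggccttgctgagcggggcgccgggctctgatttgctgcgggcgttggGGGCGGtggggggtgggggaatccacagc
Col11a1: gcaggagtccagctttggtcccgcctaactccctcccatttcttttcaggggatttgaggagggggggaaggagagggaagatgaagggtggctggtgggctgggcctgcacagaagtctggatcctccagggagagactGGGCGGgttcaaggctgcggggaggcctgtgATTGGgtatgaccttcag

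In Col1a2 the GC box stood 205 and 188 bases before the gene's first base and the CCAAT box 109 bases before it. The stretch of Col3a1 held the TATA box, 117 bases before the first base, and neither of the other motifs. Col5a1 held the GC box at 161 bases, on the other strand, and at 29 bases. Col11a1 held the GC box at 49 bases and the CCAAT box at 18 bases, the second on the other strand. No motif was shared by all 4 stretches. In windows of 250 bases, 33.85% of the 32851 promoters in the table held the CCAAT box, 32.7% the GC box and 12.4% the TATA box, each counted on both strands. The stretches of Col5a1 and Col11a1 are shorter than these windows, at 206 and 189 bases. A match is a run of letters and not a measured binding site. Col3a1 and Col5a2 are neighbours on chromosome 1 in the RefSeq gene order, the only members next to each other.

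All array values below are expression indices in arbitrary units, as the authors deposited them. Since each probe set binds its target with its own strength, an index is compared between groups and never between probe sets. Array medians ranged from 67.6 to 88.0, and precision is limited by how few arrays each group has. The labelled tissues showed their markers. The summed index of 9 corneal epithelial genes was 22180 to 25740 in adult cornea and 24690 to 25320 in P10 cornea, against 708 to 1230 in tendon and 2902 to 3781 in lens. The scraped corneas therefore still held epithelial RNA. Lens crystallin and fibre genes, 7 in all, summed to 4818 to 7588 in adult cornea, 4715 to 8573 in P10 cornea and 531 to 578 in tendon, against 33860 to 35260 in lens. Of the tendon markers 3 could be read (Scx, Fmod and Chad), at 10970 to 12300 in tendon, against 255 to 773 in corneas of both ages and 194 to 351 in lens. Tendon arrays also carried skeletal muscle RNA, with a summed index of 28400 to 33750 over 8 muscle genes, against 191 to 478 in corneas of both ages and 594 to 610 in lens. One adult cornea preparation, replicate 1, stood apart in its RNA: its 3′ to 5′ ratio was 2.25 for Gapdh and 4.69 for actin, against 0.831 to 1.04 and 1.07 to 2.07 on the other 8 arrays. Cornea arrays had served an earlier study, so in each comparison of cornea with tendon or lens a batch cannot be told apart from the tissue.

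With age, the collagen genes were lower in the cornea as a group. Of the 8 genes, each read by the probe set of highest mean, 7 fell in adult cornea relative to P10 cornea, by between 2.81-fold for Col1a1 and 12.3-fold for Col3a1. The exception was Col11a2, and 7 genes also fell when adult replicate 1 was left out. Across all 8154 probe sets tested, 3.88% were lower and 0.699% higher in adult cornea, by limma with Benjamini-Hochberg adjusted p under 0.05. The median log2 difference of the 8 genes was -2.32, against -0.13 over all probe sets tested. For all 7 genes every adult array lay below both P10 arrays, an arrangement that 25.1% of all tested probe sets shared. In whole tissue, fewer cells of a type and less RNA per cell cannot be told apart.

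Type I collagen came first in the comparison of ages. Col1a1, read by 94305_at, had an index of 2283, 2315 and 2240 in adult cornea, against 6137 and 6766 in P10 cornea. The 3 adult values lay close together, far below both P10 values. The log2 difference was -1.49 ± 0.14 (SE), with a limma adjusted p of 0.000344. Its partner chain Col1a2, read by 101130_at, had an index of 1203, 1404 and 975.1 in adult cornea, against 4489 and 4630 in P10 cornea. Again no adult array reached a P10 array. Col1a2 fell by 1.93 ± 0.36 on the log2 scale, a fold of 3.82, with a limma adjusted p of 0.0142. This call was lost without P10 replicate 1 (adjusted p = 0.111), without P10 replicate 2 (0.12) and at a pseudocount of 1 (0.477), whereas Col1a1 kept its call in all 20 alternatives.

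Type III collagen showed the widest gap between the ages among the members. The index of Col3a1 from 98331_at was 75.8, 157 and 91.6 in adult cornea, against 1538 and 1380 in P10 cornea. Every adult value lay far below both P10 values. Col3a1 fell by 3.62 ± 0.28 on the log2 scale (limma adjusted p = 0.000163). Both further probe sets of Col3a1 fell as well, and all 3 kept their call in all 20 alternatives. Values of 161984_f_at and 102990_at lay below the array median on all adult arrays, so these probe sets were tested only because P10 cornea and tendon were high, and their difference is part of why they were tested.

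The minor fibrillar collagens divided. Col5a1, the chain shared by all common forms of type V collagen, had an index from 101080_at of 245, 192 and 123 in adult cornea, against 1088 and 755 in P10 cornea. Col5a2, the second chain of type V, had an index of 381, 214 and 171 in adult cornea, against 1836 and 1451 in P10 cornea. Neither gene had an adult array that reached a P10 array, and in both the adult array with the high 3′ to 5′ ratios was the highest of the 3. Col5a1 fell by 2.23 ± 0.27 and Col5a2 by 2.68 ± 0.29 on the log2 scale, with limma adjusted p-values of 0.00181 and 0.000891. Both calls held in all 20 alternatives.

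In type XI collagen the chains did not follow each other. Col11a1 had an index of 28.9, 14.1 and 17.5 in adult cornea, against 216 and 147 in P10 cornea. All adult values lay below the array median, and Col11a1 was tested only because P10 cornea and tendon were high. It fell by 2.45 ± 0.24 on the log2 scale (limma adjusted p = 0.000491). Col11a2 had an index of 541, 677 and 645 in adult cornea, against 455 and 513 in P10 cornea. Adult values were slightly above P10 values with no overlap, as for 6.46% of tested probe sets. The log2 difference of 0.35 ± 0.66 was not called (limma adjusted p = 0.891), and its 95% interval ran from -1.13 to 1.82, so a fall as large as that of Col11a1 lies outside it. The tendon arrays of Col11a2, at -44.7 and 121, enter this error because all groups share 1 estimate of the spread.

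Col14a1, the fibril-associated member, had an index of 32.9, 26.2 and 79.7 in adult cornea, against 281 and 304 in P10 cornea. Only adult replicate 3 reached its array's median, and no adult array came near a P10 array. The filter was met by adult replicate 3, P10 cornea and tendon but by no lens array, so Col14a1 was tested because P10 cornea and tendon were high, and its difference is part of why it was tested. Col14a1 fell by 2.40 ± 0.31 on the log2 scale, a fold of 5.29 (limma adjusted p = 0.00230), and kept its call in all 20 alternatives.

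**Figure D1:**
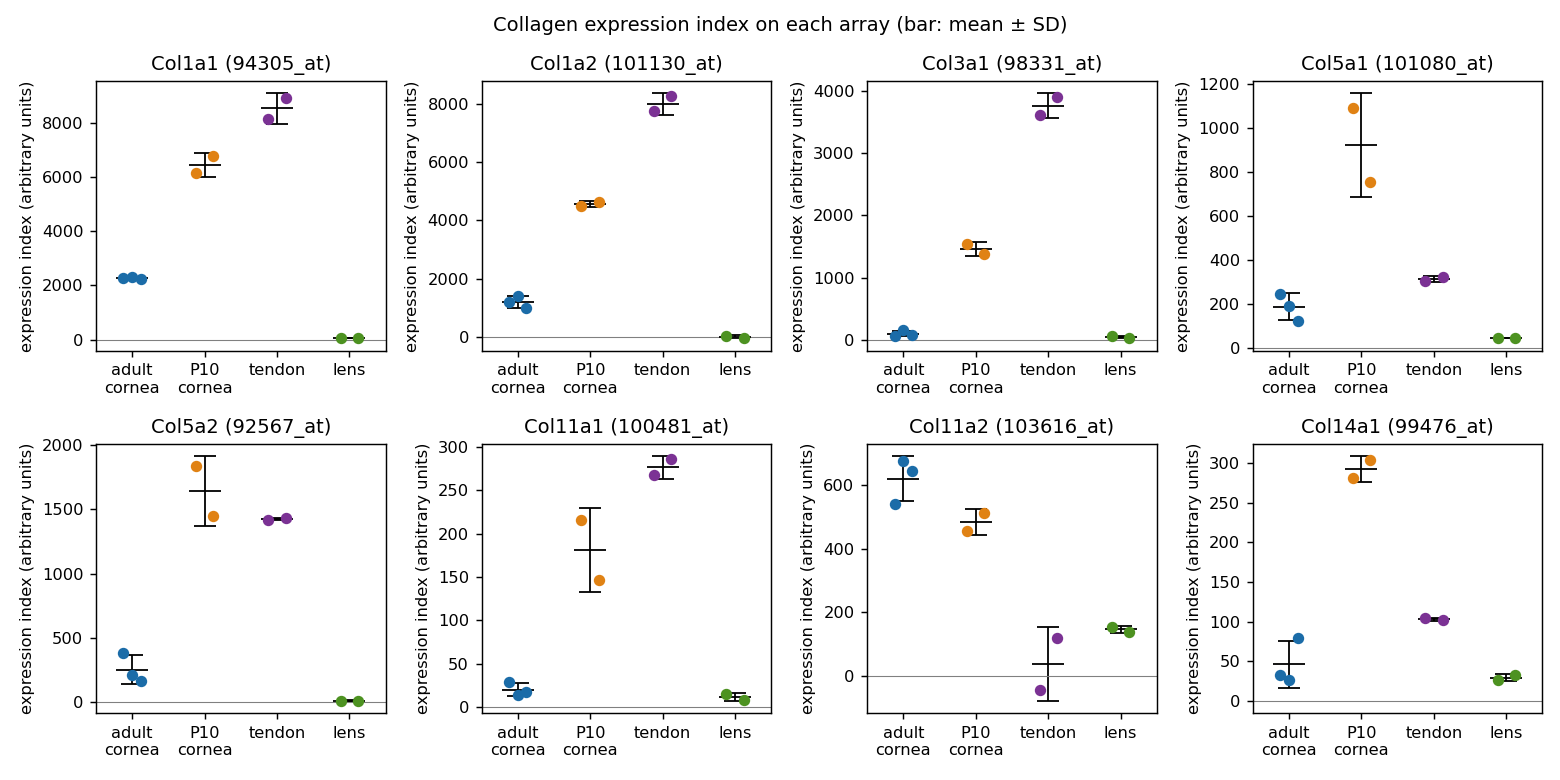
Expression index (arbitrary units) of the 8 collagen genes, each by the probe set of highest mean, in adult cornea, P10 cornea, tendon and lens. Points are arrays and bars are mean ± SD. Col1a1 lay at 2240 to 2315 in adult cornea and 6137 to 6766 in P10 cornea, and Col11a2 was the only one with its highest mean in adult cornea.

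Stromal and other cell markers moved as follows between the ages. The summed index of 7 stromal fibroblast genes was 4502 to 6097 in adult cornea and 9317 to 9370 in P10 cornea. Of the 7, 3 were lower in adult cornea (Lum, Thy1 and Fn1), against 3.88% of all tested probe sets. Thy1, at 10.3 ± 12.5 in adult and 67.4 ± 10.3 in P10 cornea (SD), lay below the array medians at both ages. It passed the filter through tendon. Kera, Dcn, Vim and Pdgfra were not called. Without adult replicate 1, 4 of the 7 were lower, Kera among them (limma adjusted p = 0.0384). At an unadjusted p under 0.05, 5 were lower, against 13.1% of all probe sets tested. The median log2 difference of the 7 was -0.90, against -0.13 over all probe sets. Mean Vim was 95.0 in adult and 97.9 in P10 cornea, and mean Pdgfra was 142 and 127. Epithelial markers, 8 of 9 of which were tested, gave no call (22180 to 25740 in adult cornea, 24690 to 25320 in P10 cornea). The vascular endothelial sum over 6 genes was 249 to 364 in adult cornea and 256 to 390 in P10 cornea. Of these 6 genes 3 were tested, and Cdh5, the cadherin of endothelial junctions, was lower in adult cornea, at 0.687 ± 6.70, against 46.3 ± 11.4 in P10 cornea (SD, n = 3 and 2, limma adjusted p = 0.00368). Cdh5 lay below the array medians in corneas of both ages and passed the filter through tendon. Pecam1, another of the 6, was at or below 0 on both P10 arrays and on no adult array. Of the 7 lens markers, Crybb2, a beta-crystallin, was higher at 1179 ± 304 in adult cornea, against 470 ± 125 in P10 cornea (limma adjusted p = 0.0188). Bfsp1, a beaded filament protein of lens fibres, was lower at 68.9 ± 9.45 in adult cornea, against 139 ± 11.4 in P10 cornea (limma adjusted p = 0.0259, and 0.0846 without adult replicate 1). The part of the stromal, vascular and lens markers in the collagen differences was not tested.

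**Figure D2:**
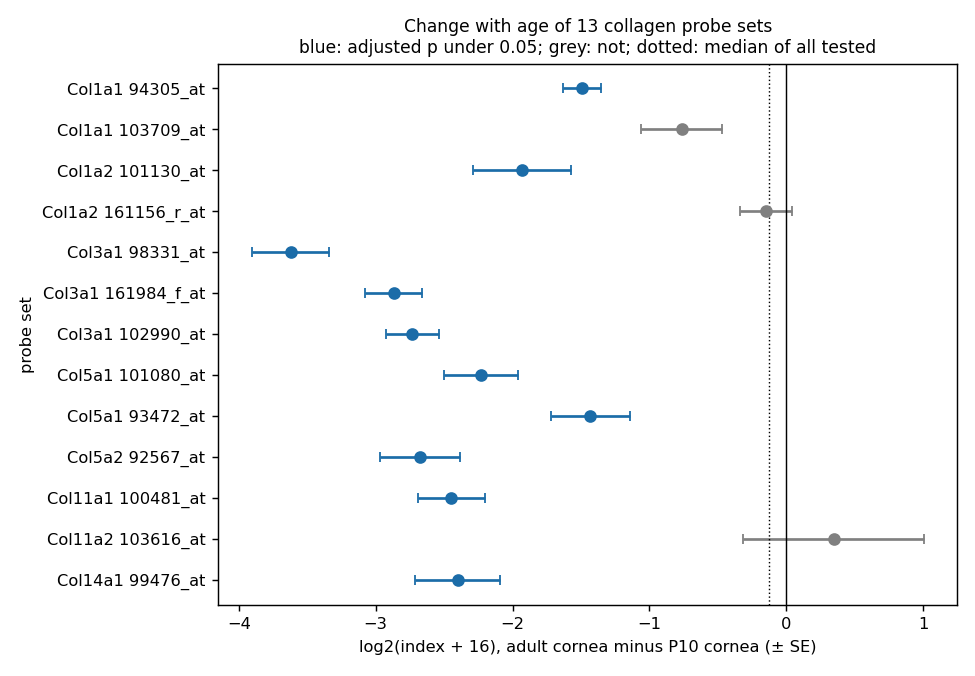
Difference of log2(index + 16), adult cornea minus P10 cornea, for the 13 collagen probe sets, with SE bars. Blue points have an adjusted p under 0.05 and grey points do not, and the dotted line is the median of all tested probe sets at -0.13. Of the 13, 10 lay to the left of it as called falls, down to -3.62 for Col3a1.

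Col1a1, Col1a2, Col3a1 and Col5a1 had several probe sets, and those of Col1a2 went against each other. Over the 9 arrays the log2 values of 101130_at and 161156_r_at had a Pearson correlation of -0.75, as a description across arrays of 4 tissues. The second probe set had an index of 153, 143 and 186 in adult cornea, 184 and 174 in P10 cornea, 172 and 183 in tendon, and 220 and 270 in lens. Its lowest values were in adult cornea and its highest in lens, where 101130_at was near or below 0. The suffix _r_at marks a probe set for which some design rules were relaxed. Against P10 cornea its log2 difference was -0.15 (limma adjusted p = 0.811), and this sign turned to 0.01 under quantile normalization and to 0.04 under median centring. Against lens it was lower in adult cornea, with a log2 difference of -0.56 (limma adjusted p = 0.0303), a call lost in 10 of 20 alternatives, while 101130_at was called higher. The probe sets of Col1a2 shared a sign in 2 of 6 comparisons and a call in 1 of 6.

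For Col1a1, the second probe set, 103709_at, had an index of 1246, 721 and 538 in adult cornea, against 1333 and 1355 in P10 cornea. Adult replicate 1 was much the highest of the adult arrays and close to P10. The log2 difference of -0.76 was not called (limma adjusted p = 0.228), and without adult replicate 1, the array with the high 3′ to 5′ ratios, the adjusted p was 0.0352. Against tendon, 103709_at fell by 2.15 in adult cornea (limma adjusted p = 0.000295), as 94305_at did. In P10 cornea it fell by 1.39 relative to tendon (limma adjusted p = 0.0108), where 94305_at was not called, but this was lost on leaving out any P10 or tendon array (0.056 to 0.0732). The correlation with 94305_at over the 9 arrays was 0.97, and the probe sets had the same call in 4 of 6 comparisons.

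The 3 probe sets of Col3a1 tracked one another, with correlations of 0.96 to 0.99. Their age differences were -3.62, -2.87 and -2.73 on the log2 scale, all called. The smallest was that of 102990_at, with an index of 4.12, 1.87 and 0.572 in adult cornea and 111 and 98.2 in P10 cornea. Such low values limit its fold on the log2(index + 16) scale. Col5a1's second probe set, 93472_at, had an index of 294, 130 and 200 in adult cornea, against 656 and 479 in P10 cornea. It fell by 1.43 on the log2 scale (limma adjusted p = 0.0226), a call lost without P10 replicate 1 (0.237), without P10 replicate 2 (0.0861), without tendon replicate 1 (0.0502) and with only the groups compared (0.102). When each of these 4 genes was represented by the median of its probe sets, its age difference stayed called, from -1.04 for Col1a2 to -2.87 for Col3a1. Over all 13 probe sets, 10 were lower in adult cornea and 3 were not called, and 11 were lower without adult replicate 1. In other comparisons 2 further disagreements appeared. Between P10 cornea and tendon 93472_at was not called (log2 difference 0.72, limma adjusted p = 0.124), where 101080_at was higher in P10 cornea. Between adult cornea and lens 102990_at was not called (0.18, limma adjusted p = 0.455), where 98331_at and 161984_f_at were higher in adult cornea.

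**Figure D3:**
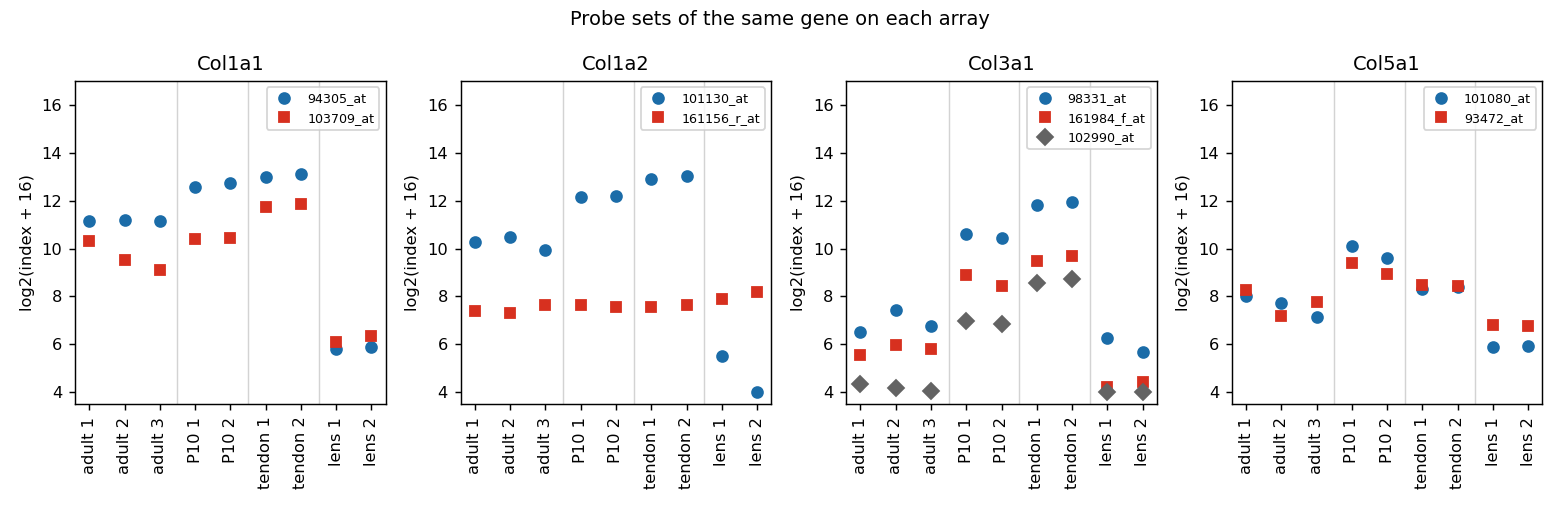
log2(index + 16) on each array for the 4 genes with several probe sets. Points of Col3a1 and Col5a1 rise and fall together across arrays, while the 2 probe sets of Col1a2 have a correlation of -0.75.

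The balance between chains that assemble together was followed as the log2 ratio of their indices on each array, which can be compared between groups but says nothing about which chain is more abundant. Col1a1 over Col1a2 was 0.92, 0.71 and 1.19 in adult cornea, against 0.45 and 0.55 in P10 cornea and 0.07 and 0.11 in tendon. Col5a1 over Col5a2 was -0.60, -0.14 and -0.42 in adult cornea, -0.75 and -0.93 in P10 cornea, and -2.16 and -2.09 in tendon. In both pairs the adult cornea values lay above those of P10 cornea and tendon. Each gene was read by its probe set of highest mean, and the Col1a1 over Col1a2 order rests on that choice. Between adult and P10 cornea 161156_r_at of Col1a2 differed by -0.15, against -1.49 for Col1a1. Between adult cornea and tendon these were -0.14 and -1.90. With 161156_r_at, mean Col1a1 over Col1a2 in adult cornea would lie below both. Col11a1 over Col11a2 was -3.63, -4.52 and -4.30 in adult cornea, against -1.02 and -1.70 in P10 cornea and 4.15 and 1.14 in tendon. Here adult cornea lay below both, with differences of -2.79 and -6.80 on the log2 scale, though both sizes depended on the pseudocount. Col11a1 was low in adult cornea, at 28.9, 14.1 and 17.5, and Col11a2 was negative on 1 tendon array. Col3a1 over Col1a1, a pair chosen after its values were seen, was -4.65, -3.75 and -4.39 in adult cornea, against -1.99 and -2.28 in P10 cornea and -1.17 and -1.19 in tendon. No ratio overlapped between adult cornea and either P10 cornea or tendon. How often ratios of other gene pairs separate in this way was not counted. Of single probe sets tested, 6.46% in adult cornea lay wholly above P10 cornea and 25.1% wholly below it. Against tendon these shares were 28.1% and 29.9%. In each of the 8 ratio comparisons the exact permutation test (two-sided) gave p = 0.2, also after Benjamini-Hochberg adjustment. This is the smallest p that 10 splits of 3 against 2 arrays allow.

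**Figure D4:**
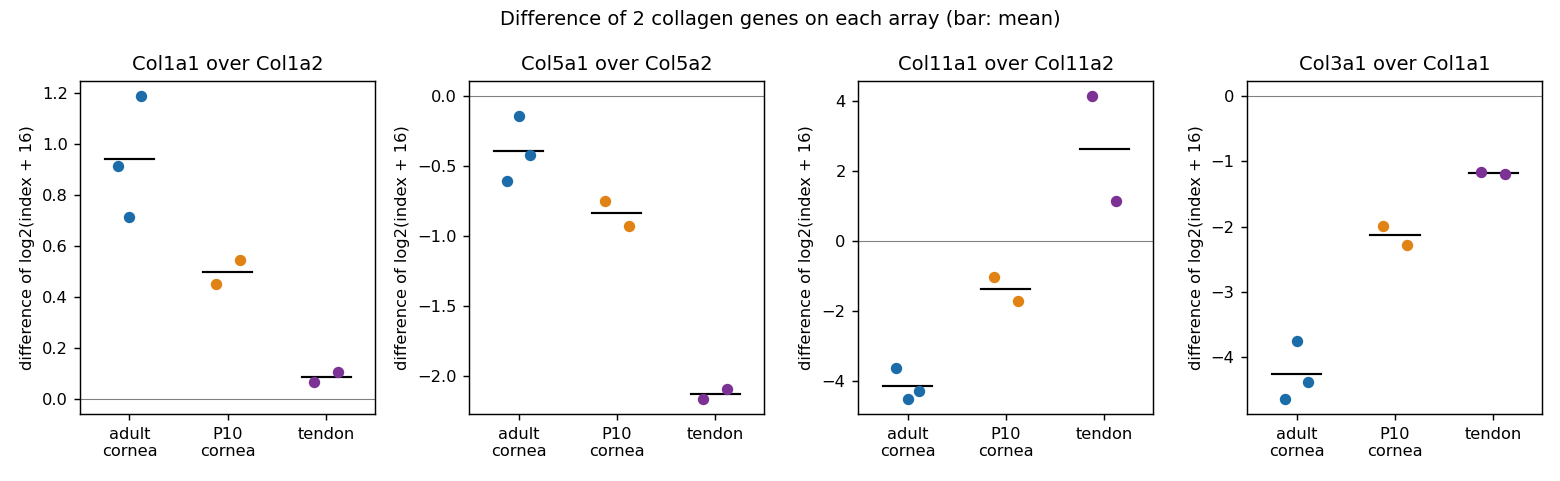
Difference of log2(index + 16) between paired collagen genes on each array, in adult cornea, P10 cornea and tendon, with a bar for the mean. Each gene was read by its probe set of highest mean. Adult cornea lay above the others for Col1a1 over Col1a2 and Col5a1 over Col5a2, and below them for Col11a1 over Col11a2 and Col3a1 over Col1a1.

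Relative to tendon, a tissue that is also rich in collagen fibrils, adult cornea was lower for most members. Of the 8 genes, 6 fell and 1 rose in adult cornea relative to tendon, while all tested probe sets gave 18.9% lower and 16.1% higher calls. Adult cornea lay wholly below tendon for 7 genes and wholly above it for 1, against 29.9% and 28.1% of all tested probe sets. Their median log2 difference was -2.19, against 0.01 over all probe sets. In tendon Col1a1 had an index of 8130 and 8924, the highest value on each of these arrays. Whether it was saturated there was not tested. It was 3.72-fold lower in adult cornea (limma adjusted p = 3.85e-06).

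Col1a2 had an index of 7758 and 8277 in tendon, and was 6.71-fold lower in adult cornea (limma adjusted p = 0.000203, and 0.0846 at a pseudocount of 1). Col3a1 had 3615 and 3898 in tendon, and was 31.5-fold lower in adult cornea, the largest difference among the 8 genes (limma adjusted p = 6.3e-07). Col5a2 had 1421 and 1431 in tendon, and fell by 2.49 on the log2 scale in adult cornea (limma adjusted p = 9.91e-05). For all of these genes every adult cornea array lay below both tendon arrays. Col11a1 had 268 and 286 in tendon, 8.20-fold lower in adult cornea (limma adjusted p = 6.26e-06). Its adult values lay below the array median, so this difference is part of why it was tested. Col14a1 was the smallest of the called falls, with 105 and 102 in tendon and a fold of 2.05. Its limma adjusted p of 0.0250 was lost without adult replicate 1 (0.0779), adult replicate 2 (0.0588), tendon replicate 1 (0.131) or tendon replicate 2 (0.115), with only the groups compared (0.0665) and by the series' own test.

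Col5a1 and Col11a2 departed from this pattern. Col5a1 had 305 and 323 in tendon, above all 3 adult cornea arrays, but the log2 difference of -0.75 was not called (limma adjusted p = 0.0564), with 0.0258 without adult replicate 1 and 0.0416 under quantile normalization. Col11a2 had -44.7 and 121 in tendon, below all adult cornea arrays. Its log2 difference was 3.76 ± 0.66 (limma adjusted p = 0.00145). The call held in all 20 alternatives, though with 1 tendon array below 0 the size depends on the pseudocount, from 2.65 at a pseudocount of 64 to 5.81 at 1.

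By mean index, P10 cornea stood between adult cornea and tendon for Col1a1, Col1a2, Col3a1 and Col11a1, with tendon highest. It also stood between them for Col11a2, with adult cornea highest. For Col5a1, Col5a2 and Col14a1 the mean of P10 cornea was above both. Between P10 cornea and tendon 3 of the 8 genes were higher, 1 was lower and 4 were not called, against 15.7% higher and 11.0% lower over all probe sets. Both P10 arrays lay above both tendon arrays for 4 genes and below them for 4, against 46.1% and 30.5% of all probe sets. Col3a1 fell by 1.36 on the log2 scale in P10 cornea (limma adjusted p = 0.00994). This call was lost without P10 replicate 2 (0.0677), tendon replicate 1 (0.058) or tendon replicate 2 (0.0706). Col5a1, read by 101080_at, was 2.80-fold higher in P10 cornea (limma adjusted p = 0.00489). This call was lost by the series' own test and without P10 replicate 1, where the log2 difference was 1.225. The second probe set of Col5a1, 93472_at, was not called, as given above. Col11a2 was higher in P10 cornea by 3.42 on the log2 scale (limma adjusted p = 0.00649). Col14a1 was 2.58-fold higher in P10 cornea (limma adjusted p = 0.0139), a call lost on leaving out any P10 or tendon array, with adjusted p-values of 0.0651 to 0.0793.

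Col5a2 differed by 0.19 on the log2 scale between P10 cornea and tendon, with a 95% interval of -0.52 to 0.91 (limma adjusted p = 0.702). For Col1a1 the difference was -0.40 (adjusted p = 0.0819), for Col1a2 -0.81 (0.155) and for Col11a1 -0.59 (0.13), and each of these was called in 4 of 20 alternatives. Col1a1 and Col1a2 were called without lens replicate 1 (0.0431 and 0.0135) and without lens replicate 2 (0.0446 and 0.0132). These comparisons share tendon arrays with those of the adult cornea, and the values of each stand on their own. The muscle RNA in the tendon arrays was described above, and its part in these differences was not tested.

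**Figure D5:**
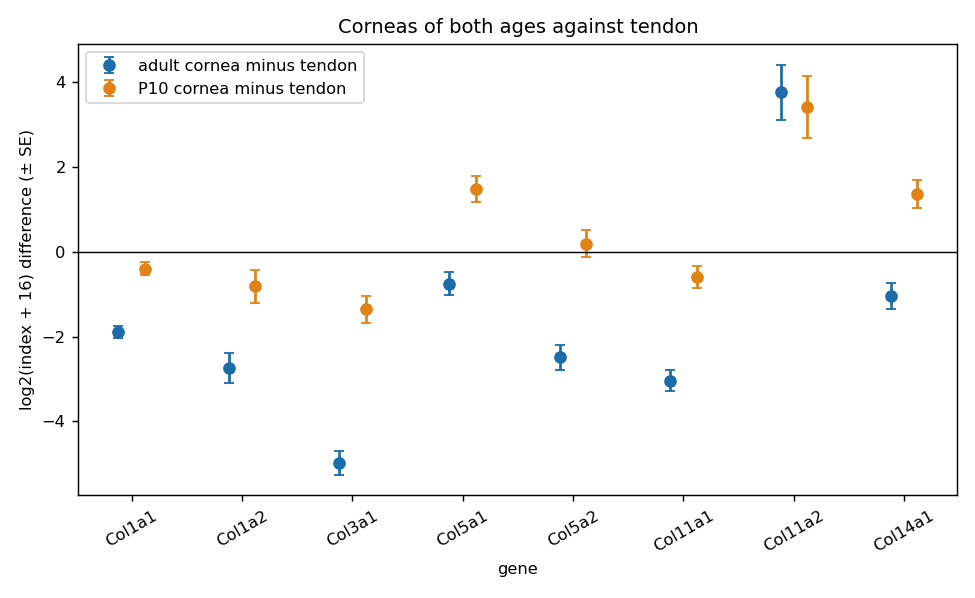
Difference of log2(index + 16) from tendon for adult cornea and P10 cornea, with SE bars, for the 8 genes. Adult cornea lies from -4.98 for Col3a1 to 3.76 for Col11a2, and P10 cornea lies above adult cornea for all genes but Col11a2.

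Lens carried the lowest index of most members, and its arrays are a low point for the family. Of the 8 genes, 6 were higher in adult cornea than in lens and 2 were not called, against 27.2% higher and 24.0% lower over all tested probe sets. Adult cornea lay wholly above lens for the same number, 6, and overlapped with it for 2, against 33.6% wholly above and 30.3% wholly below over all probe sets. The lens values of Col1a1 were 39.9 and 43.6, those of Col1a2 were 29.4 and -49.3, and those of Col5a2 were 14.8 and 11.2. All lay below the array median. Of the probe sets of highest mean, only that of Col11a2 reached it in lens, so the others passed the filter through cornea or tendon. Their difference from lens is part of why they were tested. Col1a1 was higher by 5.31 on the log2 scale in adult cornea (limma adjusted p = 3.75e-08) and Col5a2 by 3.15 (1.38e-05). Col1a2 was called higher too (limma adjusted p = 1.5e-06), but its lens index is below 0 on 1 array, so its size is set by the pseudocount, from 4.01 at a pseudocount of 64 to 7.74 at 1.

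Col5a1, with 43.3 and 44.0 in lens, was higher by 1.72 in adult cornea (limma adjusted p = 0.00049). By the series' own test the calls of Col5a1, Col5a2 and Col3a1 against lens were lost. Col3a1 had 60.6 and 34.4 in lens, and its log2 difference of 0.94 (limma adjusted p = 0.0189) was lost without lens replicate 2 (0.169) and with only the groups compared (0.0542). Col11a2 had 156 and 140 in lens, and its difference of 1.95 (limma adjusted p = 0.0311) was lost at a pseudocount of 1 (0.288) and on leaving out any adult cornea or lens array (0.0539 to 0.15). Without adult replicate 1, 5 of the 8 genes were higher. Col11a1, at 15.4 and 8.41 in lens, and Col14a1, at 26.6 and 33.0 in lens, overlapped with adult cornea, and neither was called (limma adjusted p = 0.235 and 0.363).

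P10 cornea differed more from lens. There 7 of 8 genes were higher, against 31.6% higher and 19.4% lower over all tested probe sets, and all 8 lay wholly above lens, against 49.8% above and 30.9% below over all probe sets. Col1a1 was higher in P10 cornea by 6.81 on the log2 scale (limma adjusted p = 8e-09) and Col3a1 by 4.57 (2.64e-06). Col11a2, with a difference of 1.61, was not called (limma adjusted p = 0.0879, 95% interval -0.0036 to 3.22), but was called without tendon replicate 1 (0.000507) or 2 (0.000526), whose spread enters the error. Between tendon and lens 7 of 8 genes were higher in tendon, against 26.4% higher and 22.6% lower over all tested probe sets, and 7 lay wholly above and 1 wholly below lens, against 42.4% and 36.5%. Col11a2 was the exception again, with a difference of -1.81 (limma adjusted p = 0.0619), which was called without tendon replicate 2 (3.02e-05), under quantile normalization (0.0473), with median centring (0.0419) and with the replicate block (0.0404). These comparisons share their arrays with those above, and the same limit of the filter holds for them.

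Ordered by level of the probe set of highest mean, the members fell into a few patterns. Col1a1, Col1a2 and Col11a1 ran from tendon and P10 cornea, which the test did not distinguish, down through adult cornea to lens, with Col11a1 showing no called difference between adult cornea and lens. The second probe set of Col1a1, 103709_at, was called lower in P10 cornea than in tendon, as given above. Col3a1 ran from tendon to P10 cornea to adult cornea and lens. Col5a1, Col5a2 and Col14a1 were highest in P10 cornea, where Col5a2 was not distinguished from tendon. Nor was Col5a1 by its second probe set, 93472_at. Col11a2 was highest in adult cornea, not distinguished from P10 cornea, and lowest in tendon, which was not distinguished from lens. Across the 9 arrays Col1a1 and Col1a2 had a correlation of 0.99 and Col3a1 and Col11a1 one of 0.98, while Col11a2 had -0.43 to 0.14 with the other 7, as descriptions over arrays of 4 tissues.

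Genes that act with these collagens changed with them to differing extents, to be read beside the 3.88% lower and 0.699% higher over all probe sets tested. Among 6 tested genes of other fibril-associated and related collagens, 4 fell in adult cornea relative to P10 cornea and 2 were not called (3 fell without adult replicate 1), and their median log2 difference was -1.25, against -0.13 over all probe sets. They were Col6a3, with an index of 360 ± 177 in adult cornea and 1360 ± 289 in P10 cornea (SD, n = 3 and 2), Col6a1, Col6a2 and Col9a1. Type VI collagen forms beaded filaments between fibrils. Of 9 tested genes for collagen folding and secretion, 1 fell: Serpinh1, the collagen chaperone of the endoplasmic reticulum, at 451 ± 154 in adult cornea and 1394 ± 79.8 in P10 cornea (limma adjusted p = 0.0192). At an unadjusted p under 0.05, 5 of these 9 were lower, as were 13.1% of all probe sets tested.

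Among 5 genes for propeptide removal and crosslinking, 3 fell and 1 rose in adult cornea. Lox, the lysyl oxidase that crosslinks collagen, was 80.2 ± 38.8 in adult cornea and 509 ± 194 in P10 cornea (limma adjusted p = 0.00372). Loxl1 and Pcolce also fell, but without adult replicate 1 their adjusted p-values were 0.0512 and 0.0808, leaving 1 gene lower. Tgm2, a transglutaminase that joins proteins by another bond, rose to 918 ± 409 in adult cornea, against 81.2 ± 4.03 in P10 cornea (limma adjusted p = 0.00151). Of 7 small leucine-rich proteoglycans, which coat fibrils, 3 fell: Ogn by 1.45, Bgn by 1.31 and Lum by 1.12 on the log2 scale (limma adjusted p = 0.0145, 0.00808 and 0.0465). Without adult replicate 1, 4 of these 7 fell, and 6 were lower at an unadjusted p under 0.05. Of 4 collagen receptors Ddr2, a tyrosine kinase that binds fibrillar collagen, fell, at 143 ± 64.6 in adult cornea and 732 ± 78.4 in P10 cornea (limma adjusted p = 0.00602). None of 4 tested collagenases and gelatinases was called by limma, and 2 were lower at an unadjusted p under 0.05, where 13.1% of all probe sets were.

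Against tendon, where 18.9% of all probe sets were lower and 16.1% higher in adult cornea, 5 of the 7 proteoglycans fell in adult cornea, led by Chad at -5.94, Fmod at -5.31 and Ogn at -3.40 on the log2 scale. Of the crosslinking genes, Lox fell by 4.52 (limma adjusted p = 4.92e-06), Pcolce by 2.33 and Loxl1 by 1.74, and Tgm2 rose by 2.06. Of the folding genes, 3 of 9 fell, P4ha1 by 2.69, Serpinh1 by 1.96 and Crtap by 1.14. Receptors divided, with Ddr1 3.85-fold higher and Ddr2 2.83-fold and Mrc2 1.62-fold lower in adult cornea. Col6a1, Col6a2, Col6a3 and Col9a1, 4 of the 6 other collagens, fell, and Mmp2 and Mmp9 were the 2 of 4 collagenases and gelatinases that fell. In P10 cornea relative to tendon, by contrast, none of the 6 other collagens was called by limma, nor had any an unadjusted p under 0.05, which 38.9% of all probe sets had. P4ha1 and Mmp2 had means of 40.5 and 22.9 in adult cornea, below the array medians there, and passed the filter through other arrays.

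Against lens the same lists split, beside 27.2% higher and 24.0% lower in adult cornea over all probe sets. In adult cornea 4 proteoglycans rose, Lum by 4.12, Dcn by 3.73 and Kera by 2.99 among them, and Ogn fell by 3.19 on the log2 scale. Of the other collagens Col6a1, Col6a2 and Col6a3 rose and Col9a1, Col9a2 and Col12a1 fell, the call of Col9a1 being lost without adult replicate 1 (adjusted p = 0.076). Of the folding genes 2 rose and 4 fell, but without adult replicate 1 only 1 rose, with Mia3, an export factor for procollagen, at an adjusted p of 0.0658 by limma. The largest difference among the folding genes was that of P4ha1, a prolyl hydroxylase subunit, at 40.5 ± 10.5 in adult cornea and 398 ± 122 in lens (limma adjusted p = 6.6e-06). Tgm2 was higher by 4.99 in adult cornea. The lens means of Lum, Kera and Tgm2 were 31.9, 11.8 and 11.4, below the array medians, as was the adult cornea mean of P4ha1. These genes passed the filter through other tissues, so their difference is part of why they were tested.

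Outside the family, the 5 genes whose log2 profile over the 9 arrays correlated best with the mean profile of the members were Rnf167 (Pearson correlation 0.98), Anpep (0.98), Col6a2 (0.98), Ltbp4 (0.98) and Ackr3 (0.97). Among the members themselves, the correlation with that mean, which includes them, ran from 0.98 for Col5a2 down to 0.85 for Col14a1, and was 0.03 for Col11a2. Ltbp4 had an index of 199 ± 55.9 in adult cornea, 630 ± 26.0 in P10 cornea, 513 ± 21.1 in tendon and 64.7 ± 0.057 in lens (SD, n = 3, 2, 2 and 2). With 9 arrays of 4 tissues, many genes can reach such values, and the list is a description.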

How the data were processed

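The deposited intensity values are 1 linear expression index per probe set. The series' design text says that the authors ran Affymetrix Microarray Suite 5.0 first (signal and detection calls) and dChip afterwards (invariant-set normalization and a model-based index). The submitters' processing notes name MAS5. It is unknown here which program wrote the deposited values, some of which are below 0 on each array.

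Trimmed means lay within a ratio of 1.17, and no scaling was added. Negative values were raised to 0 and log2(index + 16) was used throughout, so that 16 is the pseudocount and folds understate changes of low genes. Testing was limited to probe sets at or above the array median on 2 or more of 9 arrays. This kept 8154 of 12422, all 13 collagen probe sets among them. One group-means model over all 9 arrays was fitted in limma 3.58.1 (R 4.3.3) with a variance trend, two-sided, Benjamini-Hochberg adjusted within each comparison, at a threshold of 0.05. The code was tested on simulated data. Chain ratios used exact permutation tests in SciPy 1.17.1. The collagen genes and the related gene lists were chosen with earlier results of these data known. Named genes were all members with every probe set, up to 3 called genes with the largest change per related list and comparison, and the 5 genes most like the members' mean profile. Further genes were named after their values were seen: Col6a1 between the ages, Col6a2 against tendon, and Col9a1, Col9a2 and Col12a1 against lens. So were Mia3, Cdh5, Pecam1, Crybb2, Bfsp1 and the single stromal markers compared between the ages.

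Alternatives were pseudocounts of 1 and 64, no filter and a stricter filter, quantile normalization, trimmed mean scaling, median centring, a constant prior variance, only the groups compared, a replicate block, the series' own test and leaving out each array.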

Additional observations from a re-analysis of the deposited data

How the results depend on the processing

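Across 78 member differences and 1560 alternative values, 1462 kept direction and side of the threshold, 60 lost a call, 29 gained one and 9 turned sign. The sign turned for Col1a2 161156_r_at between adult and P10 cornea under quantile normalization (0.013) and median centring (0.037), and between P10 cornea and tendon under quantile normalization (-0.11), trimmed mean scaling (-0.048), median centring (-0.14), and without P10 cornea replicate 1 (-0.023) or tendon replicate 1 (-0.030, with a range up to 0.056 over the arrays left out). It turned for Col14a1 between adult cornea and lens with the replicate block (-0.0057) and without adult cornea replicate 3 (-0.0057, with a range up to 0.58 over the arrays left out). None of these 3 differences was called.

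Calls over all probe sets between adult and P10 cornea numbered 373, against 194 with only the groups compared, 223 by the series' test, and 0 by the methods' t-test after Benjamini-Hochberg, where 1062 had an unadjusted p under 0.05. That adjusted t-test is not among the alternatives counted for each member, and by it no member had an age call. Leaving out each array gave 84 to 426. Between adult cornea and lens there were 4175, against 1771 by the series' test and 1126 by its t-test after adjustment. Between adult cornea and tendon there were 2856, against 1294 and 1134, and 1667 to 3210 without each array. P10 cornea and lens gave 4156, against 1812 and 487. P10 cornea and tendon gave 2174, against 3832 with only the groups compared, 1127 and 173 by the series' tests, and 1062 to 2603 without each array. Tendon and lens gave 3994, against 1936 and 1253. The cause of these changes was not tested. The Col11a1 over Col11a2 ratio, adult minus P10 cornea, was -3.49 at a pseudocount of 1 and -1.85 at 64, and adult cornea minus tendon -9.58 and -4.67.

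Replicate numbers did not pair the arrays: same-numbered deviations correlated between -0.363 and 0.201. With the replicate block, calls numbered 381 between adult and P10 cornea, 4291 between adult cornea and lens, 3071 between adult cornea and tendon, 4380 between P10 cornea and lens, 2474 between P10 cornea and tendon and 4233 between tendon and lens. In that block adult cornea replicate 3 stood alone. With lens numbers crossed, tendon and lens gave 4248. Index values near 0, as for Col1a2, Col5a2 and Col11a1 in lens, limit the precision of their differences.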
